A study of Mus musculus with 2 samples.

Results

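The 55 collagen and laminin genes described here are the features whose symbol is Col or Lama, Lamb or Lamc followed by chain numbers, out of 32286 features in the matrices. They comprise 44 collagen and 11 laminin genes. The data are droplet single-cell RNA counts of 2 libraries of sorted mouse lung cells, titled aWT and aKO, from a series on a mouse model of hereditary hemorrhagic telangiectasia 2, an inherited disorder of malformed blood vessels. Both libraries came from C57BL/6J mice of 10 to 12 weeks, and in both the cells were sorted for tdTomato, a red reporter marked through a Cre recombinase under the VE-cadherin promoter, which is active in endothelial cells. The labels do not name the allele that sets aKO apart from aWT, nor how many mice each library holds. Each group is 1 library, so no difference below has a replicate check, and no p-value is given. Intervals are 95% and cover counting error only.

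Collagens are trimers that form fibrils or networks outside the cell, and laminins are cross-shaped trimers of an alpha, a beta and a gamma chain. In the basement membrane under every endothelial sheet, a laminin polymer bound to integrins and a network of type IV collagen are tied together by nidogens and perlecan. In blood vessels the laminin alpha chain is mainly the alpha 4 or the alpha 5 product, while fibrillar collagens are mostly made by fibroblasts and smooth muscle.

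After filtering, 14913 aWT and 10398 aKO cells remained, with medians of 3919 and 5739 UMIs (counted molecules) per cell, and 48 cell barcodes occur in both libraries. Cells were put into classes by how many markers of a class had a UMI. The classes held 7637 aWT and 3855 aKO general capillary-like cells, 2155 and 1013 aerocyte-like cells (the large capillary cell that lines gas-exchange surfaces), 538 and 314 arterial-like, 1047 and 923 venous-like, and 469 and 1648 lymphatic-like cells. The 10 pan-endothelial markers summed to between 5477 and 16884 UMIs per 1000000 UMIs of the class (CPM) and all were detected. Each class was led by 2 to 5 of its own markers among its 10 leading genes and by none of another class. The cells were chosen by these same markers, so neither result is an independent check of the classes. The libraries differed in other ways that cannot be told apart from the group: Xist measured 3.59 CPM in the aWT classes but 723 CPM in the aKO ones, and Acvrl1, the gene linked to this disease type, 1074 and 491 CPM. Xist is expressed by female cells, the labels give no sex, and sex and group cannot be told apart here, for X-linked genes such as Col4a5 or any other. The alveolar type 2 epithelial markers, which endothelial cells lack, summed to 197 in aWT and 9.26 CPM in aKO general capillary-like cells.

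Of the 55 genes, 28 had a mean over both libraries of at least 5 CPM in at least 1 class. The other 27 stayed under it in every class, among them Col1a1, Col2a1, Col4a6, Col6a1, Col6a2, Col6a3, Col6a4, Col6a5, Col6a6, Col7a1, Col8a2, Col9a1, Col9a2, Col9a3, Col10a1, Col11a1, Col11a2, Col16a1, Col17a1, Col19a1, Col22a1, Col24a1, Col27a1, Col28a1, Lama2 and Lamb3. Among those 27, Col2a1 had no UMI in the 5 classes. Of the 28, 23 had the same highest class in both libraries: 9 were highest in arterial-like, 7 in lymphatic-like, 4 in venous-like, 3 in aerocyte-like and 0 in general capillary-like cells. The heat map of levels shows these class patterns side by side in both libraries.

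**Figure D1:**
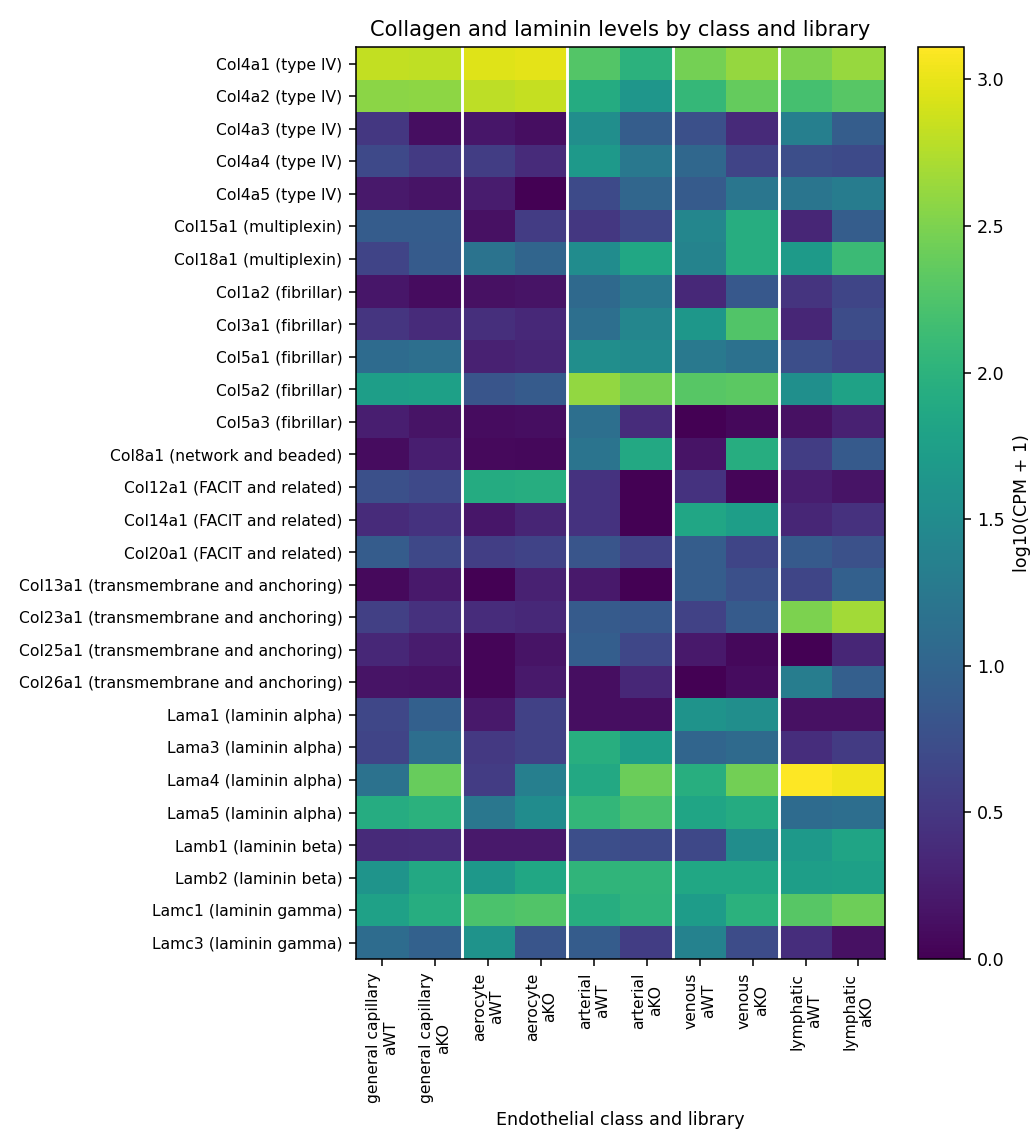
Level of each of the 28 collagen and laminin genes above the minimum (vertical axis) in the 5 endothelial classes of both libraries (horizontal axis), as colour on a log10(CPM + 1) scale. Col4a1 and Col4a2 are highest in aerocyte-like cells, Lama4 and Col23a1 in lymphatic-like cells, and Col5a2 and Lama3 in arterial-like cells, in both libraries.

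A gene was called higher or lower in aKO when its level, with 5 CPM added on both sides, differed by at least 1.5-fold, a size rule and not a test. The added 5 CPM understates the difference of low genes. In general capillary-like cells 4 of 14 measured members were higher and 0 lower, against 9.08% higher and 5.64% lower of all 10274 genes. Aerocyte-like cells had 3 of 10 higher and 1 lower (5.99% and 3.9% of all genes), and lymphatic-like cells 4 of 15 higher and 2 lower (5.5% and 5.12%). Venous-like cells had 9 of 21 higher and 2 lower, against 13.1% and 7.86% of all genes. Arterial-like cells had 5 of 19 higher and 6 lower, against 10.6% and 8.77%. With the 5 classes weighted equally, 5 of 22 were higher and 3 lower, against 6.36% and 4.15%. Those higher were Col3a1, Col8a1, Col15a1, Col18a1 and Lamb1, and those lower Col4a3, Col4a4 and Lamc3, of which Lamb1 (log2 ratio 0.34) and Col4a4 (-0.23) lost the call after thinning. Lamb1 also lost it with a mean over cells (0.50) and without cells holding a mesenchymal UMI (0.55), and Col4a4 under the stricter (-0.55) and looser class rules (-0.57) and without cells holding a mesenchymal UMI (-0.55). The median log2 ratio of the members was 0.27 in venous-like and 0.33 in lymphatic-like cells, where all genes had 0.06 and 0.03, and -0.07 in arterial-like cells, where all genes had 0.02.

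**Figure D2:**
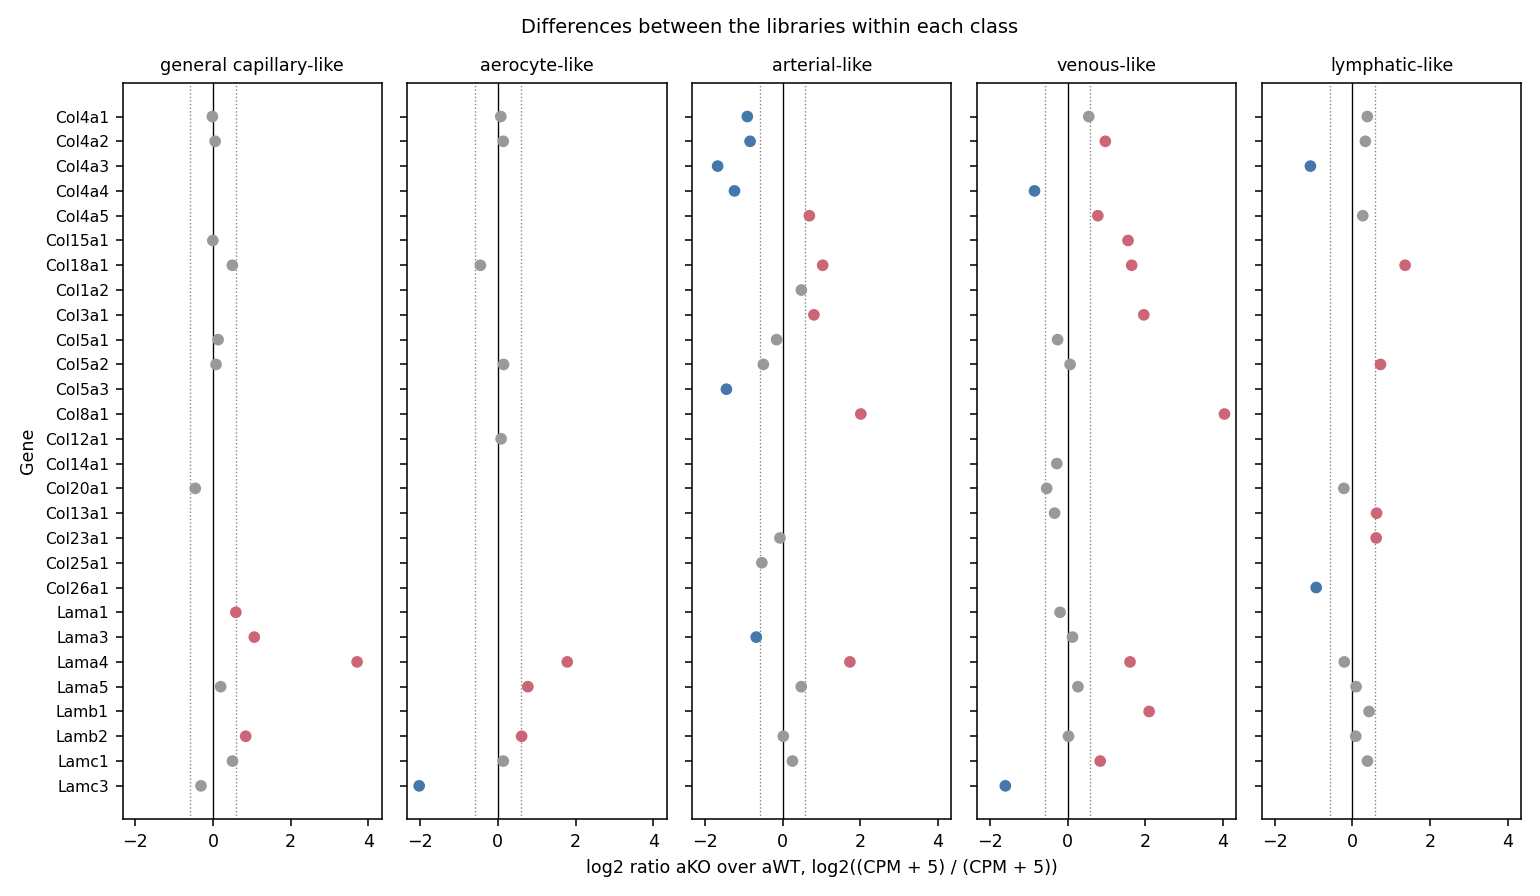
Log2 ratio of aKO over aWT, with 5 CPM added to each, for the members above the minimum, by class; each point is 1 gene in 1 class, the dotted lines mark 1.5-fold, and red and blue points are genes called higher and lower. Lama4 is at 3.71 in general capillary-like cells and Col8a1 at 4.04 in venous-like cells, while Lamc3 is at -2.03 in aerocyte-like cells.

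**Figure D3:**
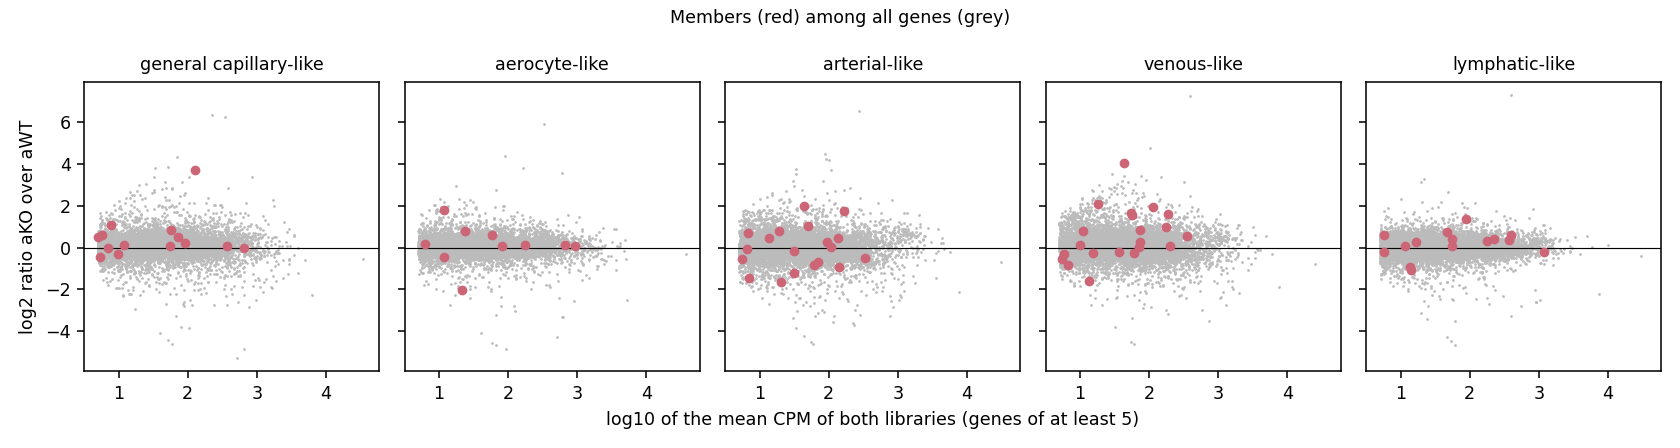
Log2 ratio of aKO over aWT (vertical) against the log10 of the mean CPM (horizontal) for all genes above the minimum (grey) and the members (red) in each class. Lama4 ranks 7 of 10274 genes by ratio in general capillary-like cells and Col8a1 ranks 3 of 10558 in venous-like cells.

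In general capillary-like cells the 4 members higher in aKO were all laminin chains, the alpha chains Lama4, Lama3 and Lama1 and the beta chain Lamb2. Lama4, the alpha 4 chain of vascular laminins (chromosome 10, 38965515 to 39110188, plus strand, mm10), was at 13.9 CPM (12.6 to 15.2, from 430 UMIs) in aWT and 242 CPM (235 to 248, from 5690 UMIs) in aKO general capillary-like cells, 17.4-fold higher in aKO. With each cell thinned to 2000 UMIs, 2.14% (1.81 to 2.50) of aWT and 29.3% (27.9 to 30.8) of aKO general capillary-like cells had a Lama4 UMI, against 4.20% and 48.4% unthinned. In epithelial cells, a type that should have little Lama4, the thinned share was 2.06% of 97 aWT cells (0.251 to 7.25) and 5.88% of 17 aKO cells (0.149 to 28.7). Their median depths were 12023 and 13619 UMIs. The aWT general capillary share lay within the aWT epithelial interval, which is too wide to place it against background. It lay above the share of 0.580% (0.300 to 1.01) in aWT aerocyte-like cells. The aKO share of 29.3% lay above the upper bounds of both epithelial intervals, although its own interval reached below the bound of 28.7% that 17 cells give. By level, epithelial cells had 9.03 CPM of Lama4 in aWT and 13.1 in aKO.

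In arterial-like cells Lama4 was at 73.5 in aWT and 255 CPM in aKO (3.47-fold), and in venous-like cells at 88.6 and 280 CPM (3.16-fold). In aerocyte-like cells it stood at 2.57 and 21.1 CPM. The thinned share there was 0.580% (0.300 to 1.01) in aWT and 2.47% (1.59 to 3.66) in aKO. Each share lay within the epithelial interval of its library, but those few epithelial cells leave intervals too wide to set a background. Lymphatic-like cells had by far the highest Lama4 in both libraries, 1284 CPM in aWT and 1109 in aKO, and were within 1.5-fold of each other. Lama4 was thus higher in aKO in the 4 blood vessel classes by the size rule, and the difference between classes was not tested.

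The lymphatic marker list summed to 804 CPM in aWT and 2943 in aKO general capillary-like cells, and 5 of its 8 genes were higher in aKO. Most of that sum was 1 gene, Lyve1, a hyaluronan receptor, at 694 and 2813 CPM. Prox1, the transcription factor that sets lymphatic identity, was at 2.93 and 2.63 CPM, and Mmrn1 and Reln were at 6.71 and 3.68 CPM in aWT and 8.07 and 3.65 in aKO. In lymphatic-like cells the same 3 genes were at 904, 2817 and 2080 CPM in aWT and 754, 2942 and 1954 CPM in aKO. General capillary markers were lower in the aKO class, 7940 CPM in aWT and 3907 in aKO, with 8 of 8 genes lower. Their part in the Lama4 difference was not tested.

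Lama5, the alpha 5 chain that accompanies Lama4 in vessel laminins, differed much less between the libraries. It was at 83.8 CPM in aWT and 96.8 in aKO general capillary-like cells, 114 and 160 in arterial-like, 65.7 and 80.1 in venous-like and 11.1 and 12.2 in lymphatic-like cells, all within 1.5-fold. Only in aerocyte-like cells was it past the size rule, at 16.2 and 31.1 CPM (log2 ratio 0.77), and thinning with classes set anew brought it there to 0.21. In the class set before thinning, 2.85% of aWT and 3.92% of aKO cells had a Lama5 UMI after thinning, with overlapping intervals. UMIs count molecules and are not scaled by transcript length, so the share of Lama4 among Lama4 and Lama5 UMIs describes UMIs only. That share was 14.2% in aWT and 71.4% in aKO general capillary-like cells, 39.2% and 61.4% in arterial-like, 57.4% and 77.8% in venous-like, 13.7% and 40.4% in aerocyte-like and 99.1% and 98.9% in lymphatic-like cells.

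Lama3, an alpha chain best known from epithelial basement membranes, was highest in arterial-like cells. There it was at 88.1 CPM (78.2 to 99.0) in aWT and 53.1 CPM (45.6 to 61.5) in aKO, lower by the size rule. A looser class rule, however, left a log2 ratio of 0.0075. The call also ended without cells holding a mesenchymal UMI and with the trend with gene span removed. In general capillary-like cells Lama3 was at 3.29 CPM in aWT and 12.3 in aKO, in the opposite direction. Its log2 ratio of 1.06 there fell to 0.38 with thinning and classes set anew. In the class set before thinning, 0.510% (0.358 to 0.706) of aWT and 1.91% (1.49 to 2.41) of aKO cells had a Lama3 UMI after thinning. Lama1, the alpha 1 chain, was highest in venous-like cells at 38.9 and 33.4 CPM, within 1.5-fold, and was at 3.58 and 7.90 CPM in general capillary-like cells.

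**Figure D4:**
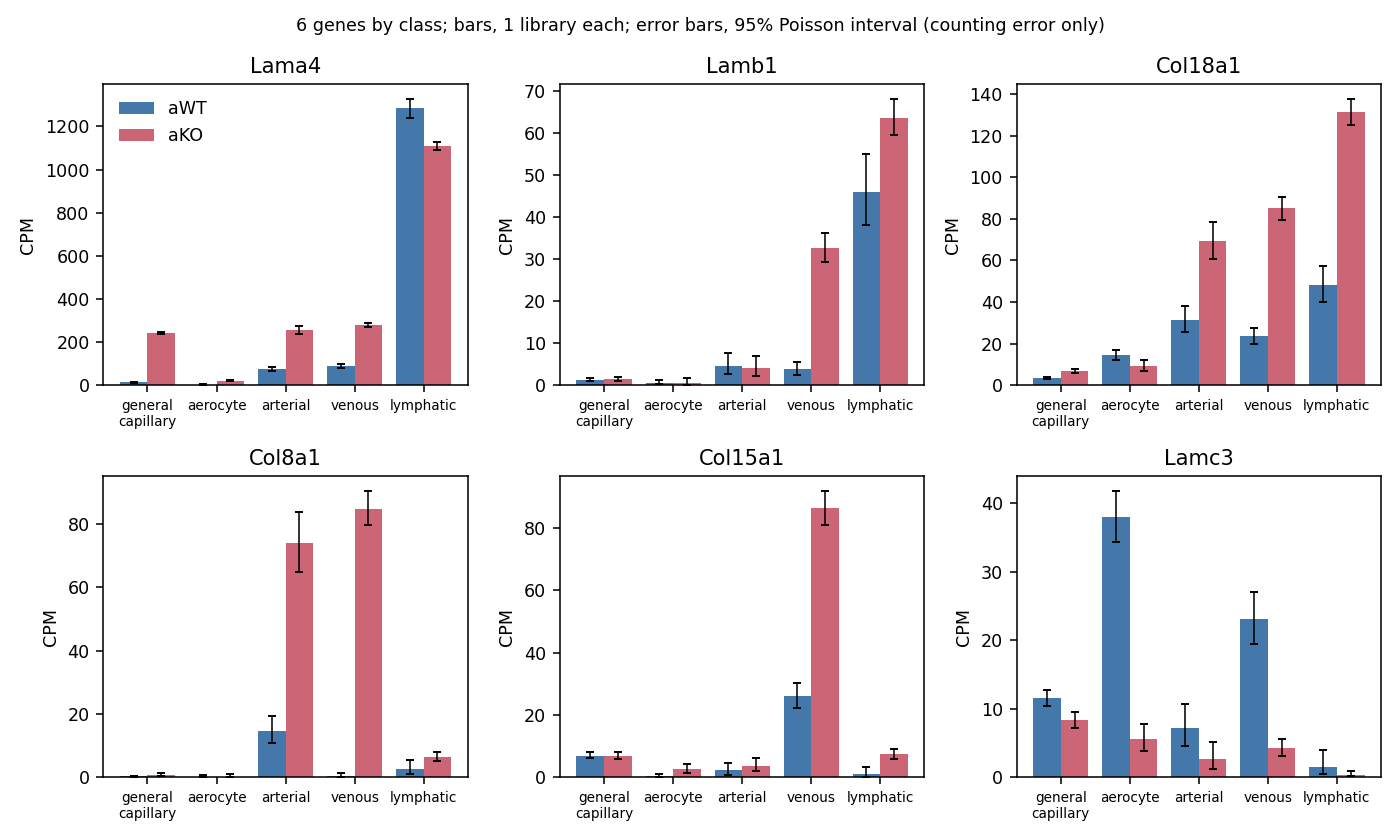
CPM in each endothelial class of aWT and aKO for 6 members (vertical axis from 0; each bar is 1 library, and the error bars are 95% exact Poisson intervals). Lama4 is at 13.9 in aWT and 242 CPM in aKO general capillary-like cells, and Lamc3 is at 38.0 and 5.56 CPM in aerocyte-like cells.

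Among the beta chains, Lamb2 was measured in all 5 classes. It was at 39.1 CPM in aWT and 74.0 in aKO general capillary-like cells, and at 44.5 and 70.7 CPM in aerocyte-like cells, past the size rule in both. Both calls ended under alternatives, in general capillary-like cells after thinning (log2 ratio 0.55) and in aerocyte-like cells with TMM factors (0.55), the stricter class rule (0.55) and the span trend removed (0.56). In the general capillary-like class set before thinning, 7.48% (6.88 to 8.12) of aWT and 12.6% (11.5 to 13.7) of aKO cells had a Lamb2 UMI after thinning. In arterial-like (107 and 109 CPM), venous-like (69.8 and 71.1) and lymphatic-like cells (53.6 and 57.3) the libraries had almost equal levels. Lamb1, the beta 1 chain, was a lymphatic-like gene in aWT, at 46.0 CPM there and 63.6 in aKO. In venous-like cells it was at 3.76 CPM (2.41 to 5.60, from 24 UMIs) in aWT and 32.6 CPM (29.3 to 36.1, from 361 UMIs) in aKO, 8.65-fold higher.

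Lamc1, the common gamma 1 chain, was highest in lymphatic-like cells, at 198 and 260 CPM. It was past the size rule in venous-like cells, at 51.7 CPM in aWT and 96.6 in aKO, and within 1.5-fold in the other 4 classes. Lamc3, the less common gamma 3 chain, went the other way. It was at 38.0 CPM (34.4 to 41.8) in aWT and 5.56 CPM (3.87 to 7.73) in aKO aerocyte-like cells, and at 23.0 and 4.24 CPM in venous-like cells. After thinning, 7.44% of aWT and 1.34% of aKO aerocyte-like cells had a Lamc3 UMI, and none of 97 aWT and none of 17 aKO epithelial cells did, which allows shares of up to 3.09% and 17.6% (3 counts of the cells). In general capillary-like cells, at 11.5 and 8.33 CPM, Lamc3 was within 1.5-fold.

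Type IV collagen supplies the network of the basement membrane. Its genes lie in head-to-head pairs. Col4a1 and Col4a2 face away from each other on chromosome 8, with Col4a1 starting at 11312826 on the minus strand and Col4a2 at 11312805 on the plus strand, so that their transcripts share 22 bases. Col4a4 and Col4a3 lie on chromosome 1 with 71 bases between their starts, and Col4a6 and Col4a5 on X with 1308 bases between. Whether counting used strand is not given in the sources used here.

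The sequence before the start is shown from RefSeq (GRCm38.p6), without annotated exons, for the Col4a4 and Col4a3 pair and for Col8a1 and Col3a1. Col4a4 and Col4a3 were both called lower in aKO arterial-like cells, Col4a4 not after thinning. Col8a1 and Col3a1 were both higher in aKO venous-like cells. Of the 55 members 40 had an entry, and none was present for Lama4. Capitals mark matches on either strand to 3 motifs. The GC box, searched as GGGCGG, is found in 32.7% of 32851 windows of 250 bases. The box named by its letters CCAAT is found in 33.8% and the TATA box, searched as TATAAA, in 12.4%. Col8a1 (chr16:57754738-57754987, minus strand) has 4 matches to the GC box. Col3a1 (chr1:45311288-45311537, plus strand) has no GC box match and 1 match to TATAAA, 117 to 112 bases before the start. The 71 bases between Col4a4 and Col4a3 (chr1:82586850-82586920, read on the minus strand, as for Col4a4) have none of the 3. The matches are a description of letters and not of binding.
Col8a1: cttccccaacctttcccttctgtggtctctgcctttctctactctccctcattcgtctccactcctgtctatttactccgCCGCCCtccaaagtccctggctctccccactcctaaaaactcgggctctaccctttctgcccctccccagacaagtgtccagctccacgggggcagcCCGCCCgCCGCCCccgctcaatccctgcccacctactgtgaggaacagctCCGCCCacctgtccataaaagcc
Col3a1: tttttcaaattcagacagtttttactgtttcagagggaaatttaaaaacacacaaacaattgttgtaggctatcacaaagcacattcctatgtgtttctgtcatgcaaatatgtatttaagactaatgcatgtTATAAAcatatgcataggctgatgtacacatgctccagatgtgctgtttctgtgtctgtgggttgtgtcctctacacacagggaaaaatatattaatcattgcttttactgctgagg
Col4a4 to Col4a3: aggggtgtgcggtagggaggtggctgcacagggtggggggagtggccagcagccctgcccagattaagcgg

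Col4a1 and Col4a2, the alpha 1 and alpha 2 chains that form the common type IV trimer, held 75.9% of aWT and 61.8% of aKO member UMIs in general capillary-like cells. Col4a1 was at 662 CPM in aWT and 654 in aKO there, and at 913 and 962 CPM in aerocyte-like cells, the highest class for both genes. Col4a2 was at 368 and 382 CPM in general capillary-like and 628 and 691 CPM in aerocyte-like cells. The ratios in these 2 capillary classes were close to 1, in contrast to Lama4.

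In arterial-like cells both chains were lower in aKO: Col4a1 at 188 CPM (173 to 203) in aWT and 97.5 CPM (87.2 to 109) in aKO, and Col4a2 at 79.8 and 42.3 CPM. A stricter class rule brought them to log2 ratios of -0.45 and -0.17, which ended both calls. General capillary markers, which mark the class with far higher Col4a1, summed to 2560 CPM in aWT and 983 in aKO arterial-like cells, and their part in the difference was not tested. In venous-like cells the chains stood higher in aKO, Col4a2 at 116 and 233 CPM, past the size rule, and Col4a1 at 284 and 417 CPM, within it. Lymphatic-like cells had 322 and 421 CPM of Col4a1 and 156 and 198 CPM of Col4a2. Col4a1 UMIs per Col4a2 UMI were 1.80 and 1.71 in general capillary-like, 1.45 and 1.39 in aerocyte-like, 2.35 and 2.30 in arterial-like, 2.44 and 1.79 in venous-like and 2.06 and 2.13 in lymphatic-like cells.

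Over the 10 class-by-library sums, the gene whose level was most like that of Col4a1 among 4237 genes of at least 50 CPM was Col4a2, with Pearson's r of 0.99, followed by Sh3pxd2a (0.95), Edil3, Lrrk2 and Lhfp (0.94 each). The sums share libraries, and r is a description only.

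Col4a3 and Col4a4, which encode chains of the network found in kidney and alveolar basement membranes, were arterial-like genes in aWT. Col4a3 was at 33.8 CPM in aWT and 7.15 in aKO arterial-like cells, and at 21.1 and 7.32 CPM in lymphatic-like cells. Col4a4 was at 45.6 and 16.4 CPM in arterial-like and 10.0 and 3.34 CPM in venous-like cells, where a stricter class rule brought its log2 ratio from -0.85 to -0.47. Both genes were thus lower in aKO in arterial-like cells, although thinning brought Col4a4 there to a log2 ratio of -0.04. Col4a3 and Col4a4 were also high in epithelial cells, Col4a3 at 128 CPM in aWT and 91.6 in aKO and Col4a4 at 108 and 118 CPM. The epithelial marker list summed to 94.3 CPM in aWT and 76.0 in aKO arterial-like cells, against 29936 and 24894 CPM in epithelial cells. The alveolar type 2 list, at 114665 and 102198 CPM in epithelial cells, summed to 149 CPM in aWT and 10.7 in aKO arterial-like cells. In aerocyte-like cells that list summed to 156 and 13.2 CPM, and in the aWT ones Col4a3 and Col4a4 were at 0.551 and 2.66 CPM. The part of epithelial RNA in the arterial differences was not tested. Col4a5, the partner chain of Col4a3 and Col4a4, was low, at 4.03 and 9.54 CPM in arterial-like and 6.90 and 15.4 CPM in venous-like cells. Thinning with classes set anew turned its venous log2 ratio from 0.78 to -0.02. In the class set before thinning, 0.879% (0.403 to 1.66) of aWT and 2.29% (1.42 to 3.47) of aKO venous-like cells had a Col4a5 UMI after thinning.

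The multiplexins carry a basement membrane collagen with interrupted triple helices. Col18a1, whose product yields the fragment endostatin, was at 31.3 CPM in aWT and 69.2 in aKO arterial-like cells, 23.7 and 85.0 CPM in venous-like cells and 48.3 and 131 CPM in lymphatic-like cells, higher in aKO in all 3. After thinning, 7.67% of aWT and 18.7% of aKO lymphatic-like cells had a Col18a1 UMI, and 0 of 97 aWT and 0 of 17 aKO epithelial cells did, which allows up to 3.09% and 17.6% (3 counts of the cells). The exact interval of the 17 aKO cells reaches 19.5%, so they set no background below the aKO share. In aerocyte-like cells Col18a1 was at 14.4 and 9.21 CPM and in general capillary-like cells at 3.39 and 6.84 CPM, both within the size rule. Col15a1, the sister gene, was a venous-like gene, at 26.0 CPM (22.2 to 30.3) in aWT and 86.3 CPM (80.9 to 91.9) in aKO. In general capillary-like cells it was at 6.97 and 6.92 CPM. Under the minimum, it was at 1.15 CPM (3 UMIs) and 7.32 CPM (96 UMIs) in lymphatic-like cells, 6.37-fold (2.11 to 31.4) higher in aKO. Also under the minimum were aerocyte-like cells, at 0.367 and 2.54 CPM (6.92-fold, 2.23 to 28.4), and arterial-like cells, at 2.17 and 3.58 CPM.

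Of the types VI, VIII, X and XXVIII, grouped as network and beaded collagens apart from type IV, Col8a1 alone passed the minimum; it is a short-chain collagen of the subendothelium and vessel wall. In venous-like cells 3 UMIs in aWT gave 0.470 CPM (0.0970 to 1.37) and 942 UMIs in aKO gave 84.9 CPM (79.6 to 90.5). The ratio of raw levels lay between 61.6 and 877 with its counting interval, and the log2 ratio with 5 CPM added was 4.04. In arterial-like cells Col8a1 was at 14.6 CPM in aWT and 73.9 in aKO, 5.07-fold higher. After thinning, 0.0977% of aWT and 5.01% of aKO venous-like cells had a Col8a1 UMI. None of 97 aWT and 17 aKO epithelial cells had one, which allows up to 3.09% and 17.6%, so these few aKO cells set no background below the aKO venous share. The rest of the classes had low levels, from 0.159 to 6.56 CPM.

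Col3a1, the type III fibrillar chain of elastic vessel walls, was at 43.0 CPM in aWT and 182 in aKO venous-like cells (4.24-fold) and at 12.7 and 25.9 CPM in arterial-like cells. Col1a1, a chain of the main fibroblast collagen, was at 1.41 and 0.812 CPM in the same venous-like cells. Col1a2, the partner chain of Col1a1, was under the minimum there, at 1.25 CPM (8 UMIs) in aWT and 6.13 CPM (68 UMIs) in aKO. In mesenchymal cells, of which there were 5 and 12, Col3a1 was at 6816 and 2540 CPM and Col1a1 at 4712 and 1176 CPM. The 12 mesenchymal markers summed to 42.5 in aWT and 108 CPM in aKO venous-like cells, with Tagln, an actin-binding protein of smooth muscle, at 14.3 and 76.2 CPM, Acta2 at 18.03 and 18.03 CPM, Dcn at 1.57 and 5.23 CPM, Lum at 0 and 4.33 CPM and Pdgfrb at 0.784 and 0 CPM. Of the 12 markers 6 were higher in aKO, and 2 were at 0 in each library. Leaving out every cell with a mesenchymal UMI left a Col3a1 log2 ratio of 1.72 in venous-like cells, against 1.96 with them.

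Col3a1 and Lamb1 had a UMI in a larger share of the aKO venous-like cells with Col8a1 than of those without, although, after thinning, 89 of the cells with Col3a1 and 30 of those with Lamb1 lacked Col8a1, more than the 26 and 11 that had it. After thinning, 46 of the aKO venous-like cells had a Col8a1 UMI, and 56.5% of those (41.1 to 71.1) had a Col3a1 UMI, against 10.2% (8.27 to 12.4) of the 873 without. Lamb1 had a UMI in 23.9% (12.6 to 38.8) and 3.44% (2.33 to 4.87). Lama4 had one in 43.5% and 35.2%, Col18a1 in 13.0% and 12.0%, and Col4a1 in 34.8% and 45.8%, with overlapping intervals. Col15a1 stood at 2.17% (0.0550 to 11.5) and 13.3% (11.1 to 15.7), lower with Col8a1, with intervals that also overlap. These cells share 1 library, and the shares are a description.

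Proliferation markers were also higher in aKO venous-like cells, 30.4 CPM in aWT and 368 in aKO over 6 genes, with 6 of 6 higher. The venous-like class was also deeper in aKO, with medians of 5800 and 10592 UMIs per cell. Its own 8 markers summed to 6162 CPM in aWT and 3899 in aKO, but 4 were higher and 4 lower in aKO. Slc6a2, 1 of those lower, was at 2301 CPM in aWT and 331 in aKO. The part of depth and of these markers in the member differences was not tested. Without cells holding a proliferation UMI, the 9 higher venous members had log2 ratios from 0.70 (Lamc1) to 4.10 (Col8a1), and Col4a4 and Lamc3 had -0.97 and -1.52. In arterial-like cells the proliferation list was at 30.1 and 144 CPM, and in lymphatic-like cells at 132 and 25.9 CPM.

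Col5a2, a type V chain that sets fibril width, was at 400 CPM in aWT and 282 in aKO arterial-like cells and 199 and 208 CPM in venous-like cells, both within 1.5-fold, and at 34.5 and 60.2 CPM in lymphatic-like cells. Col5a1, its partner, was at 33.5 and 29.5 CPM in arterial-like cells. Col5a3 was at 12.7 CPM (41 UMIs) in aWT and 1.49 CPM (5 UMIs) in aKO arterial-like cells, lower by the size rule, and Col1a2 at 10.6 and 16.7 CPM. The FACIT collagens, which sit on fibril surfaces, showed class patterns and no call. Col12a1 was an aerocyte-like gene, at 80.2 and 85.3 CPM, and Col14a1 a venous-like gene, at 67.3 and 54.6 CPM. Col20a1 was low throughout, with 7.37 and 3.52 CPM in venous-like cells. Col25a1, a transmembrane collagen and not a FACIT one, stood at 7.45 and 3.58 CPM in arterial-like cells.

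Among transmembrane and related collagens, Col23a1, a cell-surface collagen, was almost confined to lymphatic-like cells among the 5 classes, at 312 and 479 CPM, or 95.6% and 96.7% of its summed level. It was higher in aKO by the size rule, and epithelial cells held it too, at 89.5 and 166 CPM. In lymphatic-like cells Col13a1, another cell-surface collagen, was at 3.45 CPM (9 UMIs) in aWT and 8.01 CPM (105 UMIs) in aKO. Col26a1 was at 19.5 and 7.85 CPM in lymphatic-like cells, lower in aKO. Members summed to 1356 CPM in aWT and 1676 in aKO general capillary-like cells, 1931 and 2094 in aerocyte-like, 1379 and 1386 in arterial-like, 1183 and 2024 in venous-like and 2565 and 2891 in lymphatic-like cells. The summed level was thus nearly equal in arterial-like cells, where the genes within it differed in both directions.

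Genes that serve the same matrix were described with the classes weighted equally, where 6.36% of all genes were higher and 4.15% lower. The counts of each list below are small, and nothing particular to a list is read from them. Of 19 genes of collagen synthesis and secretion, all above the minimum, 2 were higher and 2 lower. P4ha1, a catalytic subunit of the prolyl 4-hydroxylase that stabilises the triple helix, was at 143 CPM in aWT and 38.0 in aKO and was lower in all 5 classes, while P4ha2, its isoform, was at 23.5 and 46.7 CPM. Fkbp10, a collagen chaperone, was at 10.9 and 21.7 CPM and Colgalt2, a collagen galactosyltransferase, at 46.8 and 26.9 CPM. Of 10 basement membrane partners, 9 were measured, 1 higher and 1 lower. Pxdn, the peroxidasin that crosslinks type IV collagen, was at 149 and 69.3 CPM, and Sparcl1, a matricellular protein, at 27.4 and 56.6 CPM. Of 11 processing and crosslinking genes, 4 were measured and 0 were called.

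Among 13 collagen and laminin receptors, 11 were measured, 3 higher and 1 lower, against the same 6.36% and 4.15% of all genes. Itga1, the collagen-binding integrin alpha 1 subunit, was at 741 CPM in aWT and 278 in aKO and was lower in all 5 classes. Bcam, a receptor for the laminin alpha 5 chain, was at 223 and 498 CPM and was higher in all 5, with 114 and 489 CPM in general capillary-like cells. Itga6, a laminin-binding integrin subunit, was at 345 and 673 CPM. It was at 626 and 1819 CPM in general capillary-like, 34.5 and 133 in aerocyte-like and 409 and 689 in arterial-like cells. In venous-like (496 and 520 CPM) and lymphatic-like cells (162 and 206 CPM) it was within 1.5-fold. Of 11 proteases and inhibitors, 9 were measured, 2 higher and 1 lower. Mmp15, a membrane-bound metalloproteinase, was at 31.3 and 8.51 CPM, and Adamts9, a secreted one, at 130 and 239 CPM.

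Members are long genes, with a median span of 114 kb. Across the 10267 genes of general capillary-like cells that have a span, the log2 ratio of aKO over aWT and log10 span had Pearson's r of -0.15, and across 10551 genes of venous-like cells -0.23. These are across genes, which are not independent replicates. Genes at least as long as the median member had a median log2 ratio of -0.18 in venous-like cells, where the members had 0.27.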

How the data were processed

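The deposited files are raw UMI count matrices (whole numbers, genes by cell barcodes), made by the authors with Cell Ranger 7.2.0 and mm10, per the submitters' processing notes, from 3′ v3 libraries, as the labels' protocols say. The sources used here do not state the annotation release or whether counting used introns or strand. The matrices hold 15996 aWT and 11045 aKO barcodes and 72270260 and 75950364 UMIs.

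Cells needed 500 genes or more and no more than 15% mitochondrial UMIs. Scrublet in scanpy 1.11.5, with an expected rate of 0.8% per 1000 barcodes, called 750 aWT (4.69%) and 388 aKO (3.51%) doublets, which were removed; the expected rates were 12.8% and 8.84%. A cell was endothelial with at least 4 of 10 pan-endothelial markers. It was general capillary-like with 4 of 8, aerocyte-like with 6 of 10, arterial-like with 5 of 8, venous-like with 4 of 8 or lymphatic-like with 4 of 8 class markers, and arterial-like and venous-like cells could hold at most 5 general capillary markers. Cells of more than 1 class (102 aWT, 259 aKO), unassigned endothelial cells (2057 and 2003) and other cells were left out of the comparison. How markers combine into classes was set after marker counts had been seen, and the members and all lists were chosen with earlier results of these data known.

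UMIs were summed over the cells of a class and library and divided by the class total to give CPM, with exact Poisson intervals. Shares of cells have exact Clopper-Pearson intervals after each cell was thinned to 2000 UMIs, which left out 3 to 580 aWT and 0 to 189 aKO cells of a class. These shares keep the classes set before thinning, while thinned log2 ratios and counts of calls use classes set anew on the thinned counts. Intervals and limits cover counting error only, and free RNA was not modelled. Log2 ratios are aKO over aWT with 5 CPM added, over genes with a mean of at least 5 CPM, and a difference was called at 1.5-fold. Every member above the minimum may be named with values, with full values by class for Col4a1, Col4a2, Col15a1, Col18a1, Lama4, Lama5, Lamb1, Lamb2, Lamc1 and members past 1.5-fold in at least 2 classes, and related genes are the up to 4 of each list with the largest ratio. Promoter sequences that an annotated exon of GENCODE M21 reaches were cut to the part free of exons, so none is printed for Col4a1 and Col4a2, whose windows lie in exons. The scripts used Python 3.11.15, numpy 2.4.6, scipy 1.17.1, statsmodels 0.14.6 and, for TMM factors, edgeR 4.0.16 in R 4.3.3, and simulated data served to test how calls by size are made. The alternatives were another pseudocount, minimum and scaling, means over cells, thinning, other class rules and filters, cells without mesenchymal or proliferation UMIs (the latter added after seeing the data), and removal of the trend with gene span. Not every gene under the minimum is reported here by name.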

Additional observations from a re-analysis of the deposited data

Results flagged for a closer look

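Col4a2 had opposite differences in 2 vessel classes, with a log2 ratio of aKO over aWT of -0.84 in arterial-like cells and 0.97 in venous-like cells. Each class is 1 sum per library, so the difference between the classes was not tested. The arterial value was -0.17 under a stricter class rule, while the venous value ranged from 0.73 to 1.17 over the 13 alternatives.

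Lama3 likewise had a log2 ratio of 1.06 in general capillary-like cells and -0.68 in arterial-like cells, and this difference was not tested either. The general capillary value rests on 102 aWT and 290 aKO UMIs, and it fell to 0.38 after thinning with classes set anew. The arterial call ended under 3 alternatives. These were the looser class rule (0.0075), leaving out cells with a mesenchymal UMI, and removal of the trend with gene span.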

How the results depend on the processing

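No paired analysis was possible because each group is 1 library and the labels give no replicate numbers, and for the same reason no library could be left out. Of 494 pairs of a named ratio past 1.5-fold (38 ratios) and an alternative (13), 492 kept the sign and 470 stayed past 1.5-fold the same way, and 25 ratios did so under every alternative. The 2 that changed sign were Lama3 in arterial-like cells, 0.0075 under the looser class rule, and Col4a5 in venous-like cells, -0.023 after thinning. Of 156 pairs of a count of members and an alternative, 137 stayed within 1.5 times. With a minimum of 20 CPM, the higher members were 2 with equal weight, 2 in general capillary-like and 3 in arterial-like cells, and the lower members 0 with equal weight, 0 in venous-like and 0 in lymphatic-like cells, since fewer genes were measured. With no minimum, venous-like cells had 4 lower and lymphatic-like cells 7 higher. A pseudocount of 1 CPM gave 1 lower in general capillary-like cells and 2 lower in aerocyte-like cells. Thinning gave 2 higher in general capillary-like, 2 lower in aerocyte-like and 2 higher in lymphatic-like cells. A mean over cells gave 2 lower in aerocyte-like and 1 higher in lymphatic-like cells. The stricter class rule gave 2 lower in aerocyte-like and 1 lower in venous-like cells. The looser class rule, and leaving out cells with a mesenchymal UMI, each gave 2 lower in aerocyte-like cells. The numbers of members measured and the shares of all genes called under these settings are not given here. Nothing particular to the members is therefore read from these counts. The causes of these changes were not tested. Arterial-like cells are the smallest class in aKO, with 314 cells, and genes of a few UMIs such as Col5a3 are limited by counting there.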

Other observations

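Endothelial cells that reached no class were shallow, with medians of 2105 UMIs in aWT and 2355 in aKO. Lama4 was at 54.6 in aWT and 344 CPM in aKO in them, Col15a1 at 8.95 and 22.9 CPM, Col8a1 at 5.22 and 15.3 CPM, and Col3a1 at 17.4 and 7.198 CPM. These cells enter no comparison.

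With every cell thinned to 2000 UMIs, venous-like cells held a mean of 1.75 different members in aWT and 2.62 in aKO, and general capillary-like cells 1.74 and 2.14. The share of cells with at least 1 member UMI was 84.7% and 93.1% in venous-like cells and 97.8% and 98.3% in lymphatic-like cells.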
